A study of Mus musculus with 4 samples.

Results

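Resting naive CD4+ T cells lacking the Nr4a receptors were set beside wild-type (WT) cells on Agilent mouse expression arrays of 1 colour (Cy3). Each genotype had 1 array. The members are the named genes with at least 1 probe well above local background on both naive T arrays, which were 17600 of the 27208 named genes on the array, read by 28377 probes. These 2 arrays are part of a series of 4, whose others hold WT and Nr4a-TKO cells after 3 h in culture conditions for induced regulatory T (iTreg) cells. Nr4a-TKO stands for the loss of Nr4a1 and Nr4a2 through floxed alleles and of Nr4a3 through a germline null allele, on C57BL/6J. The Cre line that deletes the floxed alleles is not given in the sources used here. Nr4a-TKO naive T cells were sorted as Ly5.2+ CD4+ CD44 low Foxp3- cells of naive surface phenotype from irradiated Rag2-/- recipients of T-cell-depleted marrow, mixed in equal parts from Ly5.1 donors of the WT genotype and Ly5.2 donors of the Nr4a-TKO genotype. The Nr4a-TKO marrow carried a reporter in Foxp3, Foxp3 hCD2-hCD52-KI. A mixed chimera was used because CD4 T cells of Nr4a-TKO mice are otherwise activated. WT naive T cells were sorted through the same gate from recipients of WT (Ly5.2) marrow alone, so that the kind of chimera and the genotype cannot be told apart. Donor mice were young adults, and mice of both sexes were used in the study. The number of mice behind an array is not given in the sources used here.

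Nr4a1, Nr4a2 and Nr4a3 are nuclear receptors without a known hormone ligand that bind DNA as single proteins at a short element called NBRE. In T cells their genes are switched on soon after the T cell receptor is engaged, and they take part in negative selection, in the making of regulatory T cells and in T cell unresponsiveness. A naive CD4 T cell circulates between blood and lymph nodes in a resting state, and receives weak signals from self peptides that keep some receptor-induced genes at a low level.

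Levels are given as log2 of the processed spot intensity minus the 75th percentile of the array, and a difference is Nr4a-TKO minus WT, so that 1 is a 2-fold higher level on the Nr4a-TKO array. No condition had a second array, so the differences below have no replicate error and no p-value. The only error the files hold is the spread between repeated spots of a probe on an array. It gave a difference a median SD of 0.061 over 282 probes with at least 5 spots. Of these, 262 were in the brightest of 4 equal groups by level of the probes well above background on both naive T arrays. The SD was 0.14 over 8 such probes in the third group, 0.22 over 8 in the second and 0.36 over 4 in the dimmest. Probes well above background made up 64.9% on the WT array and 65.6% on the Nr4a-TKO array. No spot was saturated, and all 14 control genes lay within 2-fold, between -0.26 and 0.35.

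The resting cells of both genotypes had closely similar levels. The difference lay within 2-fold for 96.9% of measured genes, with a median of -0.01 and quartiles at -0.18 and 0.16. By its brightest probe, 290 genes were more than 2-fold higher on the Nr4a-TKO array, 1.65% of those measured, and 261 were more than 2-fold lower, 1.48%. Most of these were dim genes. When measured genes were cut by level into 4 equal groups, 131 genes were higher and 120 lower in the dimmest, against 13 and 14 in the brightest.

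**Figure D1:**
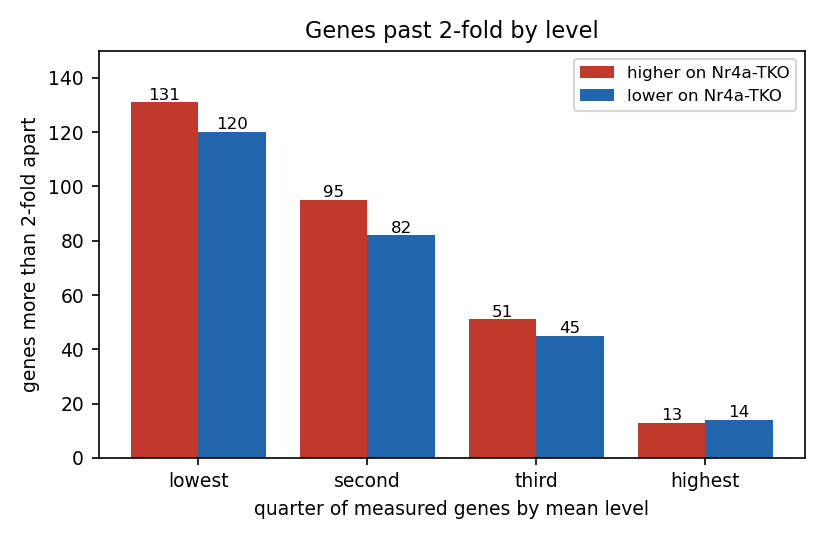
Number of genes more than 2-fold higher or lower on the Nr4a-TKO naive T array than on the WT array, in 4 equal groups of 4400 genes by mean level. The counts were 131 and 120 in the dimmest group and 13 and 14 in the brightest.

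Other probes of the same gene often did not repeat the difference of the brightest one. Of the 290 higher genes, 90 had at least 1 other measured probe, and of those 117 other probes 27 were also more than 2-fold higher, 86 lay within 2-fold and 4 were more than 2-fold lower. Of the 261 lower genes, 63 had at least 1 other probe, and of those 91 other probes 16 were also more than 2-fold lower, 74 lay within 2-fold and 1 was more than 2-fold higher. Weight was therefore given to genes with at least 2 probes more than 2-fold apart in 1 direction and none in the other. Of 6863 genes with 2 or more measured probes, 26 were higher in this way (0.379%) and 18 were lower (0.262%). Probes of a gene read the same RNA on the same arrays and are not replicates of a genotype. In 25 of the 26 higher genes and 17 of the 18 lower genes, at least 2 of the agreeing probes lie at positions that do not overlap; the exceptions are Luzp1 and Ccl27a.

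**Figure D2:**
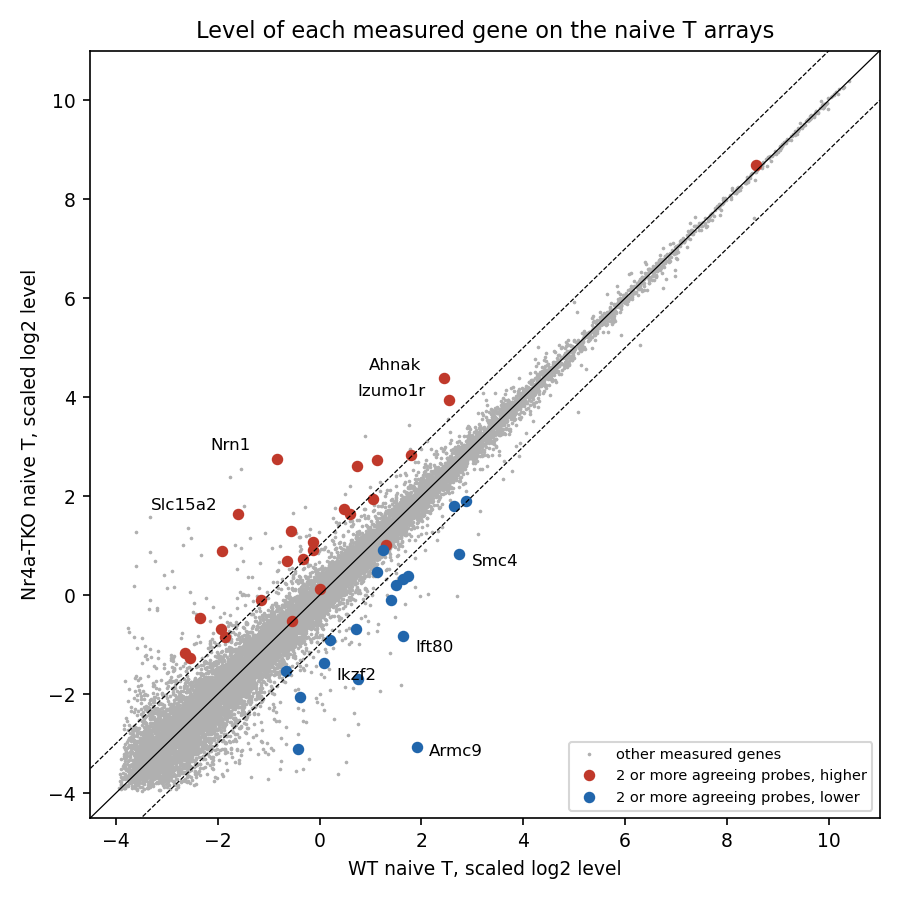
Scaled log2 level of each of the 17600 measured genes, by its brightest probe, on the WT (x axis) and Nr4a-TKO (y axis) naive T arrays. Dashed lines mark 2-fold, and the 26 higher and 18 lower genes with agreeing probes are coloured, some of them near the diagonal because their brightest probe is not among the agreeing ones.

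The targeted genes did not read as absent on the array labelled Nr4a-TKO. All 6 of their probes were well above background on both naive T arrays. The single Nr4a1 probe had a level of 0.27 on the WT array and 1.56 on the Nr4a-TKO array, a difference of 1.29. Both Nr4a2 probes were higher on the Nr4a-TKO array, by 0.20 and 0.85. The Nr4a3 probes differed by -0.37, 0.05 and 0.15. At 3 h the Nr4a1 probe differed by 0.50, the Nr4a2 probes by 1.40 and 1.38, and the Nr4a3 probes by -1.55, 0.22 and -1.97. A probe outside the deleted part of a gene cannot check a deletion, and where these alleles are cut is not given in the sources used here, so the label of the array rests on the submitters. The probes are shown by their first 30 of 60 bases, 5′ to 3′, because their place in the gene decides what they can read; the positions are those of the array files on mm9.
Nr4a1 probe 1: ctcttccgctctccttccatgtgtacataa
Nr4a2 probe 1: ctaaatgttgcgtgggtggcatgaattgaa
Nr4a2 probe 2: aaagaccatgtgactttcaataatgggggt
Nr4a3 probe 1: gtacttcaagcagtctccgccgtctacacc
Nr4a3 probe 2: actcggaaaaaccaaccaccagaaactccc
Nr4a3 probe 3: agaatcagcctttttggagctgtttgttct
The Nr4a1 probe lies at chr15:101105071-101105130 on the plus strand. The Nr4a2 probes lie at chr2:56960000-56960059 and chr2:56960699-56960758 on the minus strand. The Nr4a3 probes lie at chr4:48064521-48064580, chr4:48062977-48063036 and, listed across a longer span, chr4:48080690-48083876 on the plus strand. At 3 h Nr4a3 probes 1 and 3 were lower past 2-fold and probe 2, which lies nearest to probe 1, was not.

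Among genes with agreeing probes, those higher on the Nr4a-TKO array included surface proteins and transporters. Nrn1 encodes neuritin, a GPI-anchored surface protein found on regulatory and unresponsive T cells. Its brightest probe had a level of -0.83 on the WT array and 2.76 on the Nr4a-TKO array, 12.0-fold higher, and its other probe went from -3.36 to -1.53. Izumo1r encodes folate receptor 4, a surface marker of the same cell types. Its probes had levels of 2.55 and 0.23 on the WT array and of 3.94 and 1.41 on the Nr4a-TKO array, differences of 1.40 and 1.18. The dimmer Nrn1 probe and both Izumo1r probes are shown by their first 30 bases because both genes are surface markers on which 2 probes agree.
Nrn1 probe 2: attgcaccgcgagacgtgacagggtttttg
Izumo1r probe 1: gcctgccactcatctttgacttgtaaatcc
Izumo1r probe 2: gctgacagccaagcgacatgtcctatcatg
Nrn1 probe 2 lies at chr13:36822427-36822486, and the Izumo1r probes at chr9:14705178-14705237 and chr9:14704467-14704526, all on the minus strand of mm9.

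Slc15a2, a transporter of small peptides, had 4 of its 6 measured probes more than 2-fold higher. They differed by 3.24, 1.52, 3.32 and 2.18, and the other two by 0.26 and -0.56. Cd200, the ligand of an inhibitory receptor on myeloid cells, went from -2.34 to -0.45 by one probe and from -2.10 to -0.77 by the other. Tnfsf11, the cytokine RANKL, was higher by 1.47 and 1.21. Igf1r, the receptor of insulin-like growth factor, was higher by 1.87, 1.74 and 1.08. Ptprs, a receptor tyrosine phosphatase, was higher by 1.20 and 1.99. H2-Ab1, the beta chain of a class II molecule, was higher by 0.89, 1.08, 1.19 and 1.05 over its 4 probes.

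Ahnak, a very large scaffold protein of antigen-experienced T cells, had levels of 2.44, -2.66 and -3.59 by its 3 probes on the WT array and of 4.39, -1.13 and -1.91 on the Nr4a-TKO array. Each of the 3 probes was thus more than 2-fold higher, by 1.95, 1.53 and 1.68. Tiam1, an activator of the GTPase Rac, was higher by 1.34, 0.98 and 1.48, and Tjap1, a protein of cell junctions, by 1.60 and 1.80. Pstpip2, a membrane-bending adaptor, was higher by 3.18 and 1.82 by the 2 probes designed on RefSeq transcripts, while its brightest probe, designed on a cDNA record, differed by -0.29. Luzp1, Tmem216 and Zfp608 likewise qualified through dimmer probes, and their brightest probes differed by 0.01, 0.11 and 0.12.

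Of the remaining genes in this group, Prelid2 had the largest agreement, with differences of 2.82 and 2.77 by its 2 probes. Endod1, which encodes a nuclease-domain protein, was higher by 1.86 and 2.25. Scd1, the fatty acid desaturase, was higher by 1.24 and 1.79, and Ahi1, a ciliary protein also made in lymphocytes, by 1.27, 1.14 and 1.40. Tex35, Ccdc50, Plekha7, Chn2, Glo1, Id2 and Tns4 were only just past 2-fold by the smaller of their qualifying differences, which lay between 1.01 and 1.06. Id2, an inhibitor of DNA binding by E proteins, was higher by 1.03 and 1.89.

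Genes with agreeing probes in the other direction included transcription factors of the Ikaros family. Ikzf2 (Helios) had levels of 0.08, -0.03 and -0.28 by its 3 probes on the WT array and of -1.38, -1.48 and -1.50 on the Nr4a-TKO array. All of its probes were thus more than 2-fold lower, by differences of -1.46, -1.45 and -1.22. Ikzf4 (Eos) had 2 probes lower, by -1.73 and -1.91, and 3 others at -0.34, 0.47 and 0.24. Both genes are known from regulatory T cells. The first 30 bases of the Ikzf2 probes are shown because they differ alike in naive T cells and unlike at 3 h, where they differed by 0.15, -1.52 and -2.23.
Ikzf2 probe 1: agaaaatggggtttactatggaaatactgc
Ikzf2 probe 2: agtagctgtttattggactagcctgtcctt
Ikzf2 probe 3: caaaccaaataagctacttaactacaagca
These lie on the minus strand of mm9 at chr1:69578252-69578311, chr1:69728143-69728202 and chr1:69728793-69728852. Probes 2 and 3, which were also more than 2-fold lower at 3 h, lie close to each other, and probe 1 lies farther away in the gene.

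Smc4, a subunit of the condensin complex that packs chromosomes, had 3 probes lower by similar amounts. Their levels were 2.74, 2.51 and 2.00 on the WT array and 0.83, 0.26 and -0.07 on the Nr4a-TKO array, so that each was between 3.75-fold and 4.75-fold lower. Ift80, a protein of the transport system in cilia, was lower by -2.45 and -1.95. Armc9, another ciliary protein, had the largest difference of all agreeing genes, from 1.91 to -3.08 by its brightest probe and from 1.02 to -2.68 by the next, while its 3 dimmer probes differed by between -0.36 and -0.16. At 3 h both of the brighter Armc9 probes were at or below -3.37 in both genotypes.

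Trat1, an adaptor associated with the T cell receptor, was lower by -1.29 and -1.60. Pdk1, the kinase that shuts off pyruvate dehydrogenase, had 5 probes with differences between -1.21 and -0.98, the narrowest range of any gene with that many probes in the group. Among transporters, Slc16a5, a monocarboxylate carrier, was lower by all 3 probes, between -1.83 and -1.24, and Slc11a2, the divalent metal transporter, by -1.68, -0.50 and -1.16. Slc35g1 was lower by -1.51 and -1.63, and Lypd6b by -2.45 and -1.51. Myo6, an unconventional myosin, was lower by -1.34 and -1.11.

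Mid1, a ubiquitin ligase that binds microtubules, had 7 measured probes, of which 2 were more than 2-fold lower and the others differed by between -0.81 and 0.17. Trim62 had 2 probes lower, by -2.69 and -1.24, and 1 probe at 0.19 that is placed on another chromosome in the array files. Mical3 and Ndrg3 each had 2 of 4 probes more than 2-fold lower. Srfbp1 was lower by -1.32 and -1.31. Ccl27a, a chemokine gene with near-identical neighbouring copies, was lower by -0.89, -1.45 and -1.62, which may include signal of those copies.

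**Figure D3:**
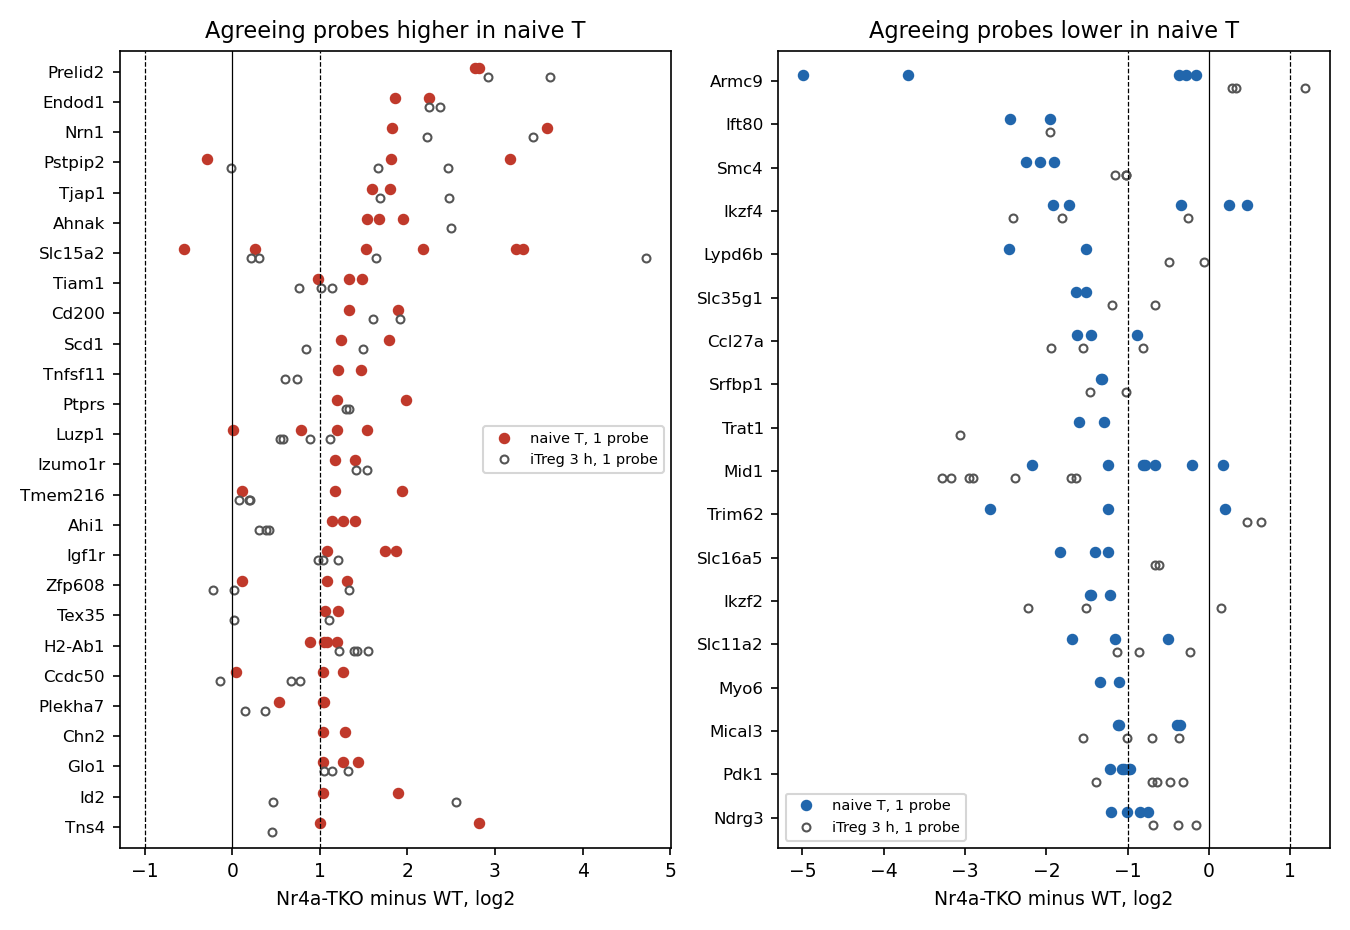
Difference between Nr4a-TKO and WT, on the log2 scale, for each measured probe of the 26 genes with agreeing probes higher (left) and the 18 lower (right). Filled points are naive T probes and open points are the same probes at 3 h in iTreg culture, where both arrays were well above background; dashed lines mark 2-fold.

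The 3 h arrays were not used to choose these genes, and they hold cultured cells of the same 2 genotypes. On them, 1.79% of 17791 measured genes were more than 2-fold higher with Nr4a-TKO and 1.71% more than 2-fold lower. By the brightest naive T probe, 25 of the 26 agreeing higher genes were measured at 3 h, of which 24 were above 0 and 14 more than 2-fold higher. Of the 18 agreeing lower genes 16 were measured at 3 h, of which 14 were below 0 and 6 more than 2-fold lower. None was more than 2-fold apart in the opposite direction. Without the demand for agreement, 48 of the 243 higher genes measured at 3 h were again more than 2-fold higher, and 34 of 205 lower genes again more than 2-fold lower. These sets overlap with the agreeing genes and differ from them in level. No agreeing gene was in the dimmest of the 4 equal groups by level, which held 131 of the 290 higher and 120 of the 261 lower genes.

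Among those with large differences at both times, Slc15a2 differed by 4.72 at 3 h, Prelid2 by 3.62, Nrn1 by 3.43, Ahnak by 2.50 and Endod1 by 2.24. Trat1 went from a difference of -1.29 in naive T cells to -3.06 at 3 h, and Mid1 from -0.66 to -2.39 by its brightest probe. Ahi1, Tmem216 and Trim62 lay within 2-fold at 3 h, at 0.30, 0.19 and 0.47. How far this carries over from the naive T cells that were put in culture was not tested.

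Genes of class II presentation, which load peptides onto molecules read by CD4 T cells, were the list whose median lay farthest from 0. All 10 measured members of 11 were above 0 and 2 were past 2-fold, with a median of 0.78 against -0.01 over all genes. H2-Aa, the alpha chain, had a level of -0.41 on the WT array and 1.17 on the Nr4a-TKO array, 3.00-fold higher. H2-DMb2, a chain of the peptide exchanger, went from 0.36 to 1.42. Cd74, the invariant chain, differed by 0.74, Ciita, the master regulator of these genes, by 0.90, and H2-Eb1 by 0.82. H2-DMa, the other chain of the exchanger, differed by 0.25, and H2-Ob, the beta chain of its inhibitor, by 0.30, 0.40 and -0.29 over its 3 probes. The summed level of the list was 13.3 times the 75th percentile of the WT array and 21.6 times that of the Nr4a-TKO array. The median at 3 h was 0.82 over 9 members. With a normexp offset of 50 the naive T median was 0.36, still above 0.

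B cells and dendritic cells are the main bearers of class II molecules, and their markers were read beside these values. Of 19 measured B cell markers of 22, 15 were above 0 and 1 more than 2-fold higher, with a median of 0.23 that became 0.60 when all measured probes of a gene were averaged. Their summed level was 48.8 on the WT array and 52.9 on the Nr4a-TKO array. Blnk differed by 1.03, Ebf1 by 0.84, Spib by 0.80 and Cd79a by 0.69, while Ms4a1 differed by 0.09 and Cd79b by -0.55. Of 17 measured myeloid and dendritic markers of 24, 7 were above 0, with a median of -0.09 and summed levels of 429.1 and 436.7. Most of that sum came from the brighter probe of Itgam, which differed by 0.04, while its other probe went from -1.95 to -0.45, 2.83-fold higher. Siglech, the next brightest, differed by -0.14 by its brightest probe, from 5.31 to 5.18. Another Siglech probe went from -3.68 to -4.90 and was well above background on the WT array alone, and a further one on neither array. Lyz1, Lyz2, Adgre1, Spi1, Cd209a and Xcr1 were not well above background on both arrays. The part of such cells in the class II values was not tested, and in a bulk sample fewer cells of a type and less RNA per cell cannot be told apart.

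Class I presentation did not share this shift. Its 13 members lay between -0.44 and 0.15 with a median of 0.03, H2-K1 at -0.10 and H2-D1 at -0.14.

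The markers of naive CD4 T cells were present on both arrays. All 23 were measured, with a median of 0.01 and Trat1 as the single member past 2-fold. Cd3e, a chain of the receptor complex, differed by -0.06, and Thy1 by -0.36. The summed level of the list was 405.7 on the WT array and 398.2 on the Nr4a-TKO array. All 33 genes of the signalling machinery next to the receptor lay within 2-fold, with a median of -0.00. In this list Nfatc1, the receptor-induced transcription factor, was higher by 0.73 and 0.68. Cblb and Pag1, 2 inhibitors of signalling, had 2 probes each lower past 1.5-fold. Cblb differed by -0.62 and -0.80 by these probes, and by -0.35 and -0.14 by its 2 brighter ones. Pag1 differed by -0.59 and -0.65, and by -0.33 by its other probe. None of 23 measured helper-lineage factors and cytokines was past 2-fold. Il18r1, a receptor of type 1 helper cells, was lower by -0.89 and -0.65, while Ifng, Il2, Il4, Il5, Il10 and Il17a were not well above background on both arrays.

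Surface markers of stimulated T cells had a median of 0.29, with 15 of 22 above 0. Past 2-fold, 3 were higher and 1 was lower. Besides Cd200 and Izumo1r, the higher one was Lag3, an inhibitory receptor, from -0.28 to 1.20. Slamf6 was higher by 0.81 and 1.05 by 2 probes and differed by -0.27 by the other one. The lower one was Tnfrsf9 (4-1BB), a costimulatory receptor, which went from -0.95 to -3.09 by its brightest probe and from -1.92 to -2.52 by the other. At 3 h the Tnfrsf9 probes differed by -3.79 and -3.31. Cd69 differed by -0.05 and Il2ra by -0.03, and Pdcd1, Havcr2 and Tigit were not measured.

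Of the factors that receptor signals switch on early, 21 were measured and 14 of them were above 0. Their median was 0.15, against a median of -0.01 and an upper quartile of 0.16 over all genes. Past 2-fold, 1 was higher and 1 lower. Irf4, a dose reader of receptor signals, was higher by 1.32 and 0.92, from -0.82 and -1.05 on the WT array. Egr3 was higher by 0.70 and 1.00, and Egr2 differed by 0.57, Batf by 0.67 and Egr1 by 0.36. Nfil3 differed by -1.08 by one probe and -0.20 by the other. Junb, at a level of 7.84 on the WT array, differed by 0.02. At 3 h the Irf4 probes differed by 0.19 and 0.13 and the Egr3 probes by 0.01 and -0.27. Of 24 feedback inhibitors, with a median of 0.04, Spry1, which dampens growth factor and receptor signals, was the 1 past 2-fold, at 2.05, and it differed by 0.38 at 3 h.

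Genes of antigen-experienced T cells went in both directions. Of 28 measured, 3 were higher and 2 lower past 2-fold, and the median was 0.12. Besides Ahnak and Id2, the higher one was Anxa2, a membrane-binding annexin, at 1.21 by one probe and 0.19 by the other. Itgb1, the integrin beta 1 chain, was higher by 0.96, 0.85 and 1.48 over its 3 probes. S100a4, a calcium-binding protein of memory cells, had a level of 2.13 on the WT array and 0.02 on the Nr4a-TKO array, 4.31-fold lower. Eomes, a transcription factor of memory cells, was lower by -1.60 and -0.66. Cd44, the marker by which naive cells were gated, differed by 0.23, and Ly6c1 and Ly6c2, near-identical genes whose probes may read both, differed by 0.03 each by their brightest probes and Ly6c1 by -0.80 by its other one.

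Genes of regulatory T cells were split in the same way. Of 17 measured of 22, 2 were higher and 3 lower past 2-fold, with a median of -0.01. Foxp3, the lineage factor that the sort selected against, was well above background on both arrays, at 0.43 on the WT array and -0.91 on the Nr4a-TKO array, a difference of -1.34. The integrin gene Itgae was lower by -1.22, beside Ikzf2, by 1 dim probe that went from -2.51 to -3.73. With a normexp offset of 50 Itgae differed by -0.25. Gpr83, a receptor enriched in regulatory T cells, went the other way, from 0.51 to 2.04, as did Izumo1r, while Nrp1 was higher by 0.93 by its brightest probe and by between 0.00 and 1.12 by 4 others. Il2ra differed by -0.03 and Tnfrsf18 by -0.25. At 3 h Foxp3 differed by -1.48 and Gpr83 by 2.44. The part of Foxp3+ cells that passed the gate in these values was not tested.

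**Figure D4:**
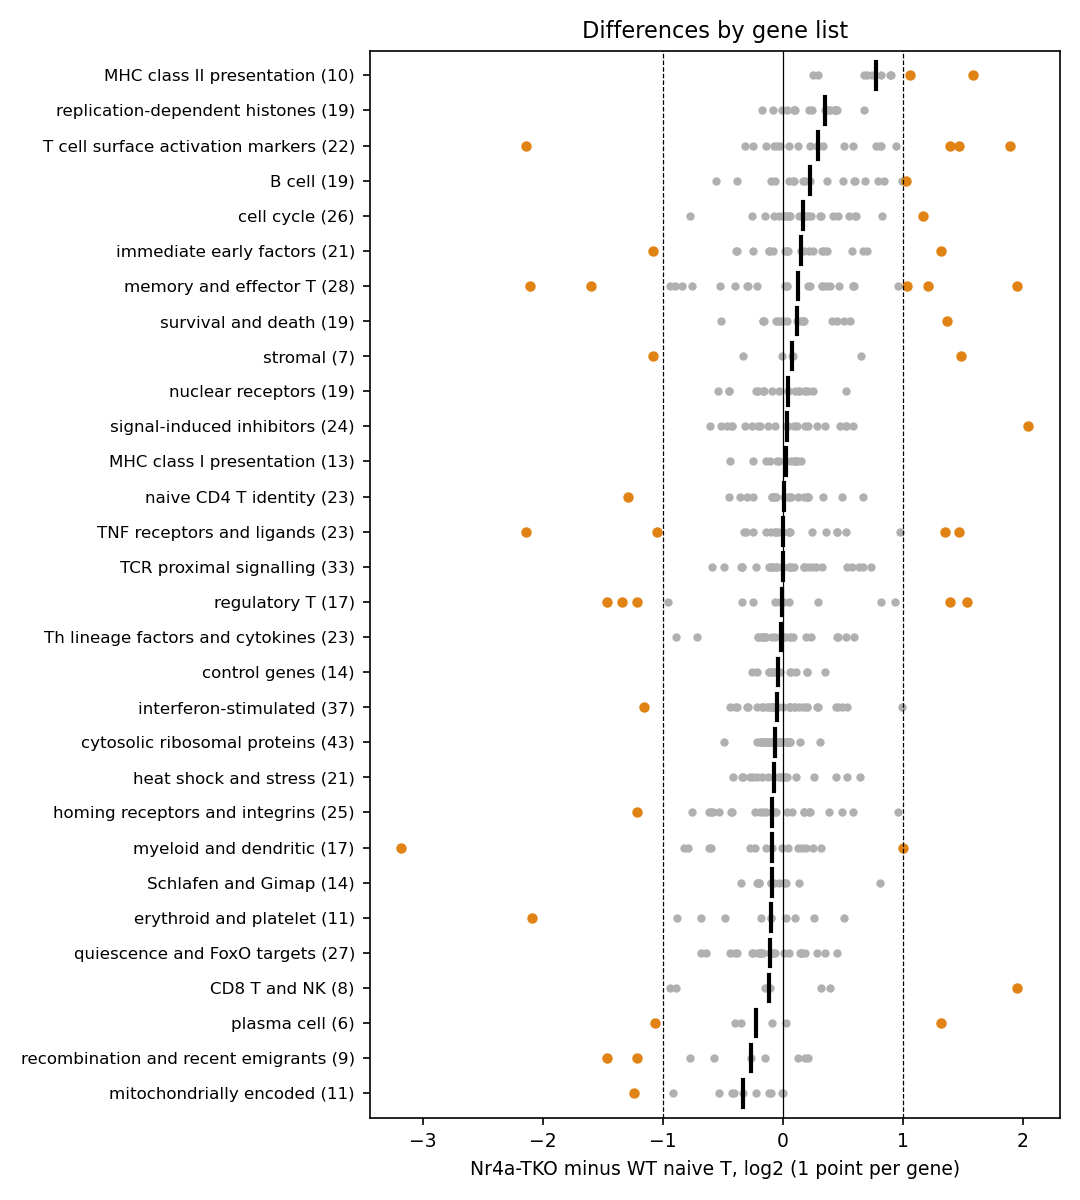
Difference between Nr4a-TKO and WT naive T cells, on the log2 scale, for each measured gene of 30 lists, with the number measured in brackets. Each point is a gene by its brightest probe, orange past 2-fold, and the black bar is the median of the list, which runs from 0.78 for class II presentation to -0.33 for mitochondrial transcripts.

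Of 23 receptors and ligands of the TNF family, 2 were higher and 2 lower past 2-fold. Tnfsf14 (LIGHT) was higher by 1.35 beside Tnfsf11, and its receptor Tnfrsf14 by 0.97 and 1.36. Tnfrsf1a, a receptor of TNF itself, differed by -1.05 and -0.11, beside the lower Tnfrsf9. Among 19 regulators of survival only Pmaip1 (Noxa), an antagonist of Mcl1, was past 2-fold, at 1.36, while Bcl2 differed by 0.14 and Mcl1 by -0.16. None of 27 factors of the resting state was past 2-fold. In that list Cdkn1b, the cell cycle inhibitor p27, was lower by -0.64 and -0.61, and Klf7 by -0.69, -0.74 and -0.32, while Klf2 differed by -0.09.

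Genes of dividing cells had a median of 0.16, with 20 of 26 above 0. Top2a differed by 1.17, 0.55 and -0.26 over its 3 probes, and Cdca8 was higher by 0.83 and 1.65. Pcna differed by -0.00 and Mki67 by 0.21. The 19 measured histone genes of the S phase clusters had a median of 0.35, with 16 above 0 and none past 2-fold. All 11 measured mitochondrial transcripts were below 0, with a median of -0.33 and 1 past 2-fold. They were unequal, with ND2 at -1.24 and ND4 at -0.92 against ND3 at -0.00 and COX1 at -0.01, and at 3 h ND2 differed by 0.07 and ND4 by 0.11.

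Lists of housekeeping functions lay close to 0. The 43 cytosolic ribosomal proteins lay between -0.49 and 0.31 with a median of -0.06, and the 21 chaperone and stress genes between -0.42 and 0.65. The 37 interferon-stimulated genes had a median of -0.05, with Mx2, at -1.16, as the single member past 2-fold. Mx2 was dim, going from -2.52 to -3.67. Its other probe went the other way, from -5.55 to -3.11, and was well above background on the Nr4a-TKO array alone. The 14 Schlafen and Gimap genes and the 19 other nuclear receptors had none past 2-fold. The 25 homing receptors and integrins had a median of -0.09, with Itgae alone past 2-fold and Ccr7 at 0.18. The 9 genes of recombination and of recent thymic emigrants had a median of -0.27, with Ikzf2 and Itgae past 2-fold, Sox4 at -0.78 and Dntt at -0.58. Y-linked genes were measured on both arrays, with differences between -0.00 and 0.39, and Xist was not measured.

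Some genes that were far apart lie next to each other in the genome. Pairs of neighbouring measured genes within 300000 bases, by mm9 probe position, numbered 15634. Both were more than 2-fold higher in 15 pairs and both more than 2-fold lower in 7, while 1 was higher and 1 lower in 7. In 883 pairs exactly 1 gene was past 2-fold. Some pairs that went the same way have probes almost at the same place, such as Gba2 and Creb3, 26 bases apart. The neighbourhoods below were chosen after their values were seen. Ift80, Smc4 and Trim59 on chromosome 3 were each more than 2-fold lower, with the probes of Ift80 129 kb before the brightest one of Smc4 and that of Trim59 14.1 kb after it. Trim59, a ubiquitin ligase gene with 1 probe, went from 1.15 to -0.59. The next measured genes on the far side, 9630025H16Rik and Kpna4, differed by -0.01 and -0.33. At 3 h the 3 Smc4 probes differed by -1.02, -1.16 and -1.03, Trim59 by -1.08 and Ift80 by -1.95 by its brighter probe. The first 30 bases of these probes are shown because the run of lower values rests on them.
Ift80 probe 1: ccccatagttcccaatatgtaccttttctt
Ift80 probe 2: atttctatttttctagtctaataattaaga
Smc4 probe 1: gccaagagtaagactttcataaatgagaca
Smc4 probe 2: ttggaagctcagtgtcgtgaaatgaaacca
Smc4 probe 3: gttcacactgaaaattttcaaatctagatt
On mm9 the Ift80 probes lie at chr3:68696592-68696651 and chr3:68697669-68697728 on the minus strand, and the Smc4 probes at chr3:68825182-68825241, chr3:68836749-68836808 and chr3:68838453-68838512 on the plus strand.

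Glo1, a detoxifying enzyme of glycolysis by-products on chromosome 17, lies in a run of higher values. Its 3 probes were higher by 1.04, 1.26 and 1.44. The neighbouring 1700097N02Rik went from 1.78 to 2.95. At 281 kb from Glo1, Gm9937 and a probe of Dnah8, 399 bases apart, were higher by 1.52 and 1.67. Whether these 2 probes read the same RNA was not tested. Another Dnah8 probe, nearer to Glo1, differed by 0.48. Btbd9, on the other side of Glo1, differed by 0.30 and 0.11. At 3 h the Glo1 probes, in the same order, differed by 1.14, 1.04 and 1.33. Gpr83 and Izumo1r, on chromosome 9, form another such pair, with their brightest probes 31578 bases apart.

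The class II genes also lie close together, on chromosome 17, and there the higher values did not take in the whole region. By their brightest probes, H2-Aa, H2-Ab1, H2-Eb1 and H2-DMb2 differed by between 0.82 and 1.58, and H2-Oa by 0.70. Genes of class I peptide supply between them were not: Psmb8 differed by 0.10, Tap1 by 0.03, Tap2 by 0.11 and Psmb9 by -0.04 by their brightest probes. Btnl2, beyond H2-Eb1, differed by -0.04. The 3 probes of Brd2, which lies between H2-Oa and H2-DMa, differed by 0.06, 0.24 and -0.40.

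**Figure D5:**
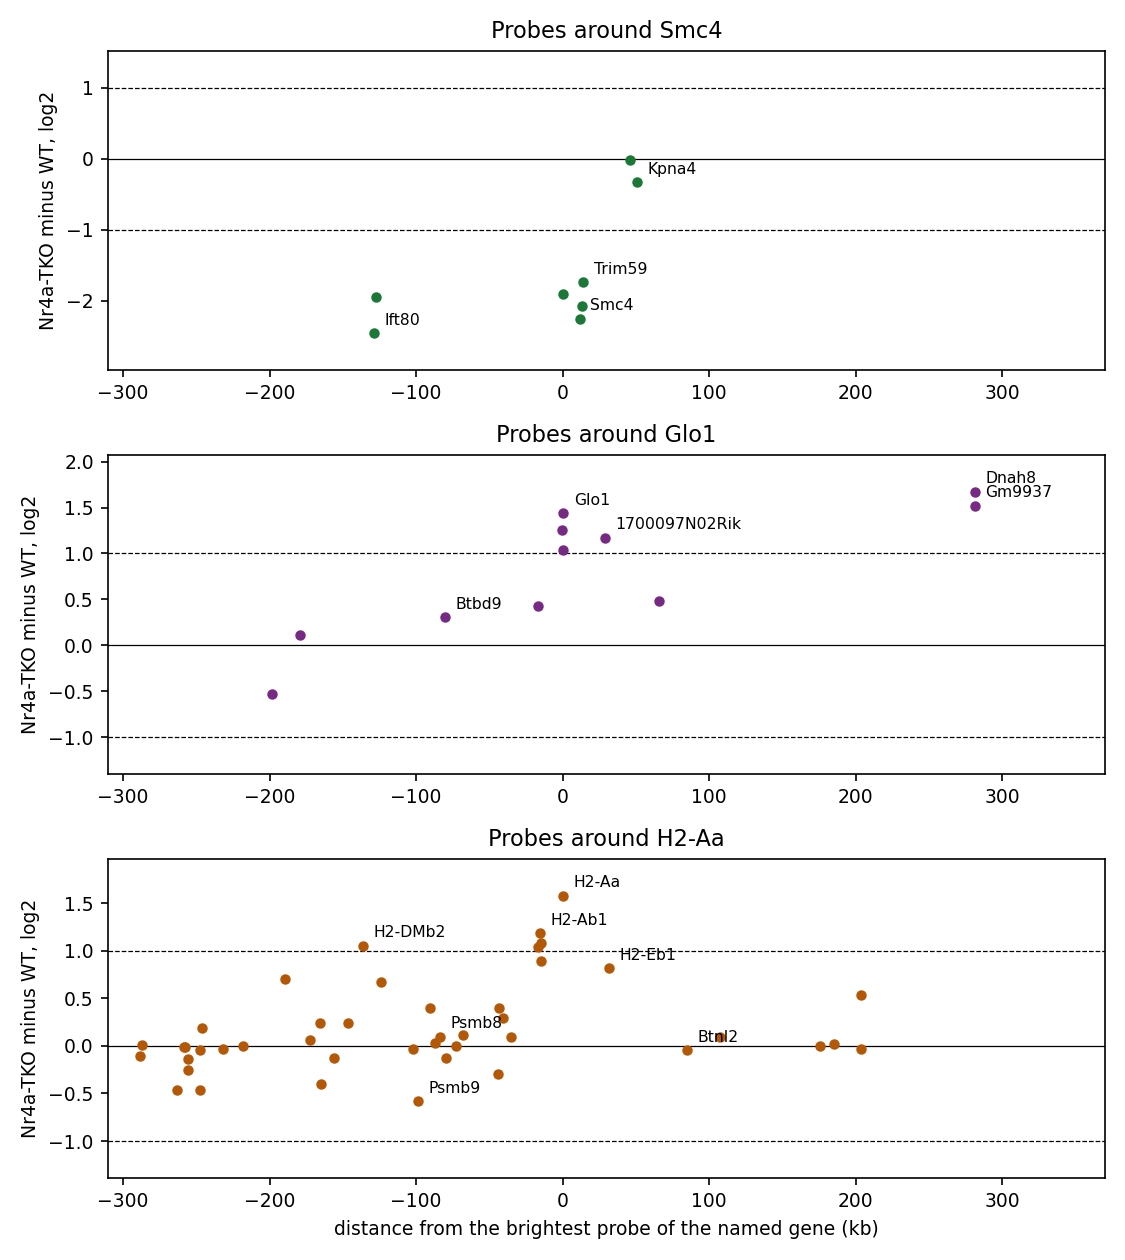
Difference between Nr4a-TKO and WT naive T cells, on the log2 scale, for each measured probe within 300000 bases of the brightest probe of Smc4, Glo1 and H2-Aa, against its distance in kb. The Ift80, Smc4 and Trim59 probes lie below the dashed 2-fold line and Kpna4 above it, and the H2-Aa, H2-Ab1, H2-Eb1 and H2-DMb2 probes lie above those of Psmb8, Psmb9 and Btnl2, while the H2-Ob probes do not all do so.

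Genes with a single probe well above background on both naive T arrays are described here by that probe. Among those with a level above the median of measured genes, the largest differences upward were Sostdc1, an antagonist of BMP and Wnt signals, from -1.76 to 2.40, and Tmem199, from -1.54 to 2.55. Sostdc1 was not well above background on the WT array at 3 h, where its level was -5.60 against -0.04 on the Nr4a-TKO array. Tmem199 differed by 0.64 at 3 h. Gpm6b, a membrane glycoprotein, was higher by 2.53 and at 3 h by 2.33, and Ppic, a peptidyl-prolyl isomerase, by 1.73 and 1.80. Another Gpm6b probe went from -4.36 to -2.21 and was well above background on the Nr4a-TKO naive T array alone, and a further one on neither. LOC102643228, Vmn1r218 and A430105D02Rik were higher by between 2.33 and 2.66 and differed by between 0.13 and 0.21 at 3 h. H2-Aa completed the 8.

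Downward, the largest was Kcnk5, a potassium channel, from 1.61 to -1.82, 10.8-fold lower, with a difference of -2.61 at 3 h. Igsf23 was lower by -1.99 and by -1.98 at 3 h. Slx, a member of a multi-copy family on chromosome X, Ubxn7, 4930529I22Rik and Gm26637 were lower by between -3.12 and -1.91, and differed by between -0.12 and 0.33 at 3 h. Il4i1, an enzyme that degrades phenylalanine, had levels of 1.38 on the WT array and -1.17 on the Nr4a-TKO array, and S100a4 is given above.

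Promoter sequences from RefSeq on GRCm38.p6, from 250 bases before to 50 after the start of transcription, were searched for the NBRE element AAAGGTCA and for the Ets core AGGAAG on both strands. Promoters were found for 17 of the 26 agreeing higher genes, 10 of the 18 lower ones and 12934 of all measured genes. The NBRE letters were in 0 of the 17 and 0 of the 10, and in promoters of 1.5% of all measured genes. The Ets core was in promoters of 7 of the 17 higher genes (41.2%) and 3 of the 10 lower ones (30%), against 38.1% of all measured genes, so the shares lay near the background. The stretches of 60 bases that hold it before the start are shown with the core in capitals, so that its surroundings can be read.
Tnfsf11: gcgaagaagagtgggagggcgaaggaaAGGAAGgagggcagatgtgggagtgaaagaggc
Ptprs: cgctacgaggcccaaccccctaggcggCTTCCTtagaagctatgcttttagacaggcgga
Tjap1: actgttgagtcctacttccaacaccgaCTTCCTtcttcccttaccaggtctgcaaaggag
Luzp1: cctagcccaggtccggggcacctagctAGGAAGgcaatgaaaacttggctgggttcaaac
Chn2: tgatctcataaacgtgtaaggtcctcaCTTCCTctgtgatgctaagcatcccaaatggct
Trim62: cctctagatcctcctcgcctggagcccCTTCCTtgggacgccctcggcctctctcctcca
Ccl27a: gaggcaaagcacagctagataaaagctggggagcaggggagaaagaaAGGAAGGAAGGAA
These are chr14:78308124-78308183, chr17:56462294-56462353 and chr17:46283139-46283198 on the minus strand, chr4:136469595-136469654, chr6:54269060-54269119 and chr4:128883876-128883935 on the plus strand, and chr4:41770213-41770272 on the minus strand, in that order. Counted from the start of transcription, the core lay at -113 in Tnfsf11, -105 in Ptprs, -145 in Tjap1, -139 in Luzp1, -69 in Chn2 and -141 in Trim62, and at -13, -9 and -5 in Ccl27a, where the letters overlap and the stretch shown ends within the last one. In Cd200, Tiam1 and Mid1 it lay after the start and is not shown, nor is another core of Chn2, at 20 after the start. Luzp1 and Ccl27a are the genes whose agreeing probes overlap.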

How the data were processed

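RNA of sorted cells was labelled with Cy3 and hybridised to Agilent SurePrint G3 mouse arrays, 1 array per condition. The spot intensity values were deposited as the authors' scanner output from Agilent Feature Extraction 11.5.1.1, per the submitters' processing notes, with background subtracted in the processed signal. The authors also deposited a table of log2 values. The study's methods name RMA, but over 56305 probes each column of that table was log2 of the processed intensity minus 1 constant per array, so it was used as an alternative. Probe positions are those of the array files, on mm9.

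Control spots and outlier spots were left out, repeated spots of a probe averaged, and each array's 75th percentile was subtracted from log2 of the processed intensity. Of 56605 probes, 41700 were named by a current RefSeq symbol, 1661 through a transcript accession and 488 through a synonym, 2513 kept the name in the files and 10243 had none. Genes with a probe well above background on both naive T arrays were kept, and a gene took its brightest probe. The precision is limited by the number of arrays, and no test was made. Named genes are the targeted genes, those with agreeing probes past 2-fold (the 20 with the largest agreement in each direction), list members past 2-fold or with 2 probes past 1.5-fold, the 2 brightest members of lists, the 8 largest single-probe differences above the median level and the 5 largest bounds in each direction. Other list members and genomic neighbours were named after their values were seen. The members and lists were chosen with earlier results of these data known. Alternatives were normexp with offset 0 or 50 and quantile normalization (limma 3.58.1 in R 4.3.3), the deposited table, median centring, other filters on dim probes, the mean of probes, thresholds of 1.5-fold and 3-fold and, added after seeing the data, RefSeq probes alone. The counting was run on simulated data whose only noise was the spread between repeated spots, with all probes of a changed gene changed alike. It therefore checked the counting and cannot say how many of the differences here are false. Tables and plots were made with matplotlib 3.10.9, numpy 2.4.6 and pandas 2.3.3 under Python 3.11.15. A few withheld items are not reported here.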

Additional observations from a re-analysis of the deposited data

Results flagged for a closer look

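Il4i1, the gene of an enzyme that degrades phenylalanine, was past 2-fold in opposite directions in resting and cultured cells. Its single probe went from 1.38 on the WT array to -1.17 on the Nr4a-TKO array in naive T cells, a difference of -2.55, and from -0.12 to 1.59 after 3 h in iTreg culture, a difference of 1.71. The 2 differences lie 4.26 apart on the log2 scale. With 1 array per condition this was not tested.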

How the results depend on the processing

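Counts past 2-fold moved with the treatment of dim probes. Against 290 genes higher and 261 lower of 17600 measured, normexp with an offset of 50 gave 61 and 55, and with an offset of 0 gave 200 and 169. The stricter filter on dim probes gave 175 and 154 of 13632 genes, and no filter 1550 and 1516 of 27182. A threshold of 1.5-fold gave 881 and 923, and one of 3-fold 91 and 80. Of genes with agreeing probes, 26 higher and 18 lower, the offset of 50 left 4 and 3, no filter gave 165 and 112, 1.5-fold gave 98 and 84, 3-fold left 8 and 4, and RefSeq probes alone, an alternative added after seeing the data, left 19 and 9. Each smaller set was part of the main one, and the sets without a filter shared 24 of the 26 and all 18. The added offset shrinks differences of dim probes by construction. A threshold of 3-fold, the stricter filter and RefSeq probes, with 14755 genes, leave fewer to count, and no filter leaves more. The cause of the rest of these shifts was not tested. The deposited table, median centring and the mean of probes kept the counts of genes within 1.5 times. The class II median was 0.36 with the offset of 50, and above 0 in every alternative run. Of 70 named genes past 2-fold, 0 changed sign and 31 came within 2-fold in at least 1 alternative. No paired analysis was possible because each genotype has 1 naive T array.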

Other observations

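Markers of other lineages held single genes far apart beside lists near 0. Of 17 myeloid and dendritic markers Cd14, a receptor of bacterial lipopolysaccharide, went from -0.33 to -3.52, while Tyrobp differed by -0.80, Csf1r by 0.13 and C1qb by -0.01. Ly86 lay at the 2-fold line, at 1.00. Of 11 erythroid and platelet markers, with a median of -0.10, the globin gene Hbb-bt differed by -2.09, and Hba-a1 by -0.48. Near-identical beta globin genes may share its probe. Of 8 markers of CD8 T and NK cells, with a median of -0.12, Klre1 differed by 1.95 by one probe and by -0.48 by the other, and Cd8b1 by -0.15, and Klrd1 and Ncr1 were not well above background on both arrays. Of 6 plasma cell markers, with a median of -0.22, Mzb1 differed by -1.06 beside the higher Irf4, and Sdc1 by 0.02. Of 7 stromal markers, with a median of 0.07, Col1a1 differed by 1.48 and Vcam1 by -1.08, while Col1a2 differed by 0.07 and Pecam1 by 0.08. The part of such cells in other values was not tested.

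Some probes were well above background on 1 naive T array only. Counted over named genes without a probe measured on both arrays, 1134 were so on the Nr4a-TKO array and 962 on the WT array. They belonged to 1098 and 937 of the 27208 named genes on the array. Their differences are bounds, set against the lowest probe well above background on the dimmer array or the probe's own signal there, whichever was higher. On the Nr4a-TKO array D830032E09Rik was at least 36.7-fold higher, Sec14l4 at least 29.3-fold, Tm4sf5 at least 27.5-fold, Cstl1 at least 21.7-fold and Srrm3 at least 20.2-fold. In the other direction D330022H12Rik was at least 67.7-fold lower, Klhl13 at least 41.2-fold, Tmem52b at least 35.1-fold, 2810408B13Rik at least 28.1-fold and one probe of Ttc39c at least 19.9-fold. The other Ttc39c probe went the other way, from -5.95 to -3.61, and was well above background on the Nr4a-TKO array alone. The other probes of Klhl13 and Srrm3 were not well above background on either naive T array. At 3 h Srrm3 was again well above background on the Nr4a-TKO array alone, Tm4sf5 on the WT array alone, and the probes of the other 8 genes that gave these bounds on neither array.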
